A study of Homo sapiens with 6 samples.

Results

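The 6 genes that encode the chains of type IV collagen, COL4A1, COL4A2, COL4A3, COL4A4, COL4A5 and COL4A6, were followed in LX-2 cells, an established line of human hepatic stellate cells. They were taken as the rows of the gene table whose gene name equals the chain's symbol, which gave 6 of 27830 genes. Bulk RNA-seq libraries were available for 3 control samples, which received no treatment, and 3 samples given 10 ng/ml transforming growth factor beta 1 (TGF-β1) for 24 h. All samples come from the same line, which was grown with fetal bovine serum. According to the labels TGF-β1 was given without serum, and whether the controls also lost their serum for those hours is not stated, so effects of serum and of the cytokine cannot be told apart. Whether replicates came from separate cultures is also not stated. The p-values therefore measure only how far these samples scatter, which may be technical.

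Type IV collagen is the network-forming collagen of basement membranes, the thin sheets of matrix that lie under epithelia and endothelia. Its chains fold into trimers, which join end to end and through their globular C-terminal domains into a mesh that also holds laminin, nidogen and perlecan. The COL4A1 and COL4A2 products form the trimer found in nearly all basement membranes. The COL4A5 product enters other trimers, with the COL4A3 and COL4A4 products in the glomerulus and lung, and with the COL4A6 product in smooth muscle and skin. In the liver, stellate cells lie in the space of Disse, where a continuous basement membrane is normally lacking and where one builds up along the sinusoids in fibrosis.

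The 6 genes lie in 3 pairs on 3 chromosomes, and the genes of a pair are read in opposite directions from neighbouring start sites. COL4A1 (ENSG00000187498, chr13:110148963-110307233, minus strand) sits beside COL4A2 (ENSG00000134871, chr13:110305812-110513209, plus strand). COL4A4 (ENSG00000081052, chr2:227002711-227164453, minus strand) sits beside COL4A3 (ENSG00000169031, chr2:227164565-227314792, plus strand). COL4A6 (ENSG00000197565, chrX:108155607-108439497, minus strand) sits beside COL4A5 (ENSG00000188153, chrX:108439844-108697545, plus strand). These positions are those of GENCODE release 29 on GRCh38, and all 6 genes are annotated there as protein coding. By these positions the spans of COL4A1 and COL4A2 overlap, since the span of COL4A2 begins inside that of COL4A1. The spans within the other pairs do not overlap.

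The stretches between the RefSeq start sites (GRCh38.p14) of the measurable pairs are printed because the differences described below had the same sign for the 2 genes of each pair and opposite signs between the pairs, although 1 gene of each pair did not pass the test. Between COL4A1 and COL4A2 the stretch has 126 bases, chr13:110307158-110307283. Between COL4A6 and COL4A5 it has 379 bases, of which the central 300 are shown, chrX:108439498-108439797. Both are plus strand, 5′ to 3′, so the minus-strand gene is read leftward from the left end. Capitals mark every match, on either strand, to 5 motifs: the GC box GGGCGG, the CCAAT box, the SMAD-binding core CAGAC, the AP-1 site TGACTCA and the CTC box CCCTNCCCC. A match on the other strand appears as its reverse complement.
COL4A1-COL4A2: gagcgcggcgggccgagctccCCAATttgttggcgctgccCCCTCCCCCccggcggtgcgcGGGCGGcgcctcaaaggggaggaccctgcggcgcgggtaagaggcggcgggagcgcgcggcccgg
COL4A6-COL4A5: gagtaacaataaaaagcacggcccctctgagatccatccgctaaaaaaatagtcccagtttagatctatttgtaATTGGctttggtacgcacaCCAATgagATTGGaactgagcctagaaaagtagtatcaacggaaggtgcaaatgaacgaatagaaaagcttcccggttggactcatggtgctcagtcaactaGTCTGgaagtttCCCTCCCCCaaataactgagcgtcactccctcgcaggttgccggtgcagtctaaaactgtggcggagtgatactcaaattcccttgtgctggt

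The stretch between COL4A1 and COL4A2 was 80.2% G or C with 20 CpG dinucleotides, a GC content above that of 97.1% of 35116 RefSeq promoters. For GC a promoter was the 250 bases before its start site, whatever the length of the stretch. The 379 bases between COL4A6 and COL4A5 were 48.5% G or C with 12 CpG, above 29.5% of promoters. The 418 bases between COL4A4 and COL4A3 lay between them at 70.1%. The COL4A1-COL4A2 stretch held 1 CTC box, and 6.43% of promoters held one in a window of the same length. It also held 1 GC box, as did 34.6% of promoters, and 1 CCAAT box, as did 21.1%. Neither CAGAC, present in 19.8% of promoters, nor TGACTCA, present in 2.46%, occurred there. The printed 300 bases between COL4A6 and COL4A5, the part searched, held 3 CCAAT boxes, where 34.6% of promoters held at least 1 in as many bases. For promoters these bases ran from 250 before the start site to 50 after it. The printed bases held 1 CTC box, as did 11.4% of promoters, and 1 CAGAC, as did 45.3%. GGGCGG, present in 45.0% of promoters, and TGACTCA, present in 4.95%, did not occur in them. The motif matches overlapped nowhere in either printed sequence. A match is a description of letters, not of binding. GENCODE places exons of alternative transcripts over 124 of the 126 bases and over 39 of the 379 bases, so start sites other than those of RefSeq exist in both stretches.

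Total counts were between 13866957 and 17694675 reads per library, and no 2 libraries of a group agreed within sampling noise. Of 8 genes listed as a check of the TGF-β1 response, 4 passed the test and were higher with TGF-β1: FN1 (fibronectin), TGFBI, TAGLN and PMEPA1. Among all tested genes 0.187% passed and were higher. The check genes that did not pass include SMAD7, SKIL and ACTA2. ACTA2, smooth muscle actin, which the design text names as the activation check, stood at 5.0 ± 0.338 CPM in controls and 4.77 ± 1.35 with TGF-β1 (SD, n = 3; CPM is counts scaled to the library size). The 12 stellate markers were all in the table, and their summed level was 1347 to 1492 CPM in controls and 1704 to 2047 with TGF-β1. COL1A1 made most of that sum, at 1331 CPM in controls and 1769.8 with TGF-β1. Of the 10 stellate markers tested, 2 had a positive difference and 8 a negative one, with a median log2 difference of -0.11. None passed the edgeR test, which 0.366% of all tested genes did. PDGFRB stood at 47.7 CPM in controls, HAND2 at 14.7 and NGFR at 10.1. Other stellate markers were low in controls: COL1A2 at 2.22 CPM, GFAP at 1.96, RELN at 1.71, RGS5 at 0.698 and PDGFRA at 0.579. LRAT, with at most 2 reads in any library, and DES, with at most 5, were near 0. Of the markers of endothelial cells, a main source of type IV collagen, 7 of 8 were in the table, and their sum was 319 to 361 CPM in controls and 276 to 318 with TGF-β1. Most of it was TIE1, while PECAM1 stood at 2.61 CPM in controls and 2.20 with TGF-β1, and CDH5 at 0.195 and 0.121. Summed markers of hepatocytes (5 of 8 in the table) were 50.3 to 54.1 and 57.3 to 72.5 CPM, those of epithelia (6 of 7) 629.6 to 737 and 498 to 672, and those of leukocytes (4 of 7) 14.0 to 18.5 and 11.5 to 12. SERPINA1 (26.9 CPM in controls) and CPS1 (25.6) made almost all of the hepatocyte sum. APOA1, APOB and CYP3A4 had at most 1 read in any library. KRT8 (379 CPM in controls), KRT18 (222) and SOX9 (77.8) made almost all of the epithelial sum. KRT7 stood at 1.4 CPM in controls, and EPCAM and KRT19 had at most 2 reads in any library. CD14 (15.8 CPM in controls) made most of the leukocyte sum. The part of these markers in the results below was not tested.

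The differences of the 4 measurable chains had opposite signs in the 2 gene pairs. COL4A1 was 1.83-fold higher with TGF-β1 and COL4A6 was 1.97-fold lower, and both passed edgeR's quasi-likelihood test at a Benjamini-Hochberg adjusted p under 0.05. Their partners, COL4A2 at 1.55-fold higher and COL4A5 at 1.41-fold lower, did not pass it. COL4A3 and COL4A4 had almost no reads. In bulk RNA, fewer cells that make a transcript and less of it per cell cannot be told apart.

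Levels of different genes were compared as FPKM, read counts scaled to gene length and library size. In both groups the order was COL4A2, COL4A1, COL4A5 and COL4A6, and each chain's 3 values lay apart from those of the next. Over the 6 libraries the mean was 60.4 FPKM for COL4A2, 26.3 for COL4A1, 4.35 for COL4A5 and 2.33 for COL4A6. Among the 14463 genes tested these means ranked 682, 1815, 7093 and 8934. COL4A3 and COL4A4, below 0.1 FPKM in every library, came last and could not be ordered between themselves.

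**Figure D1:**
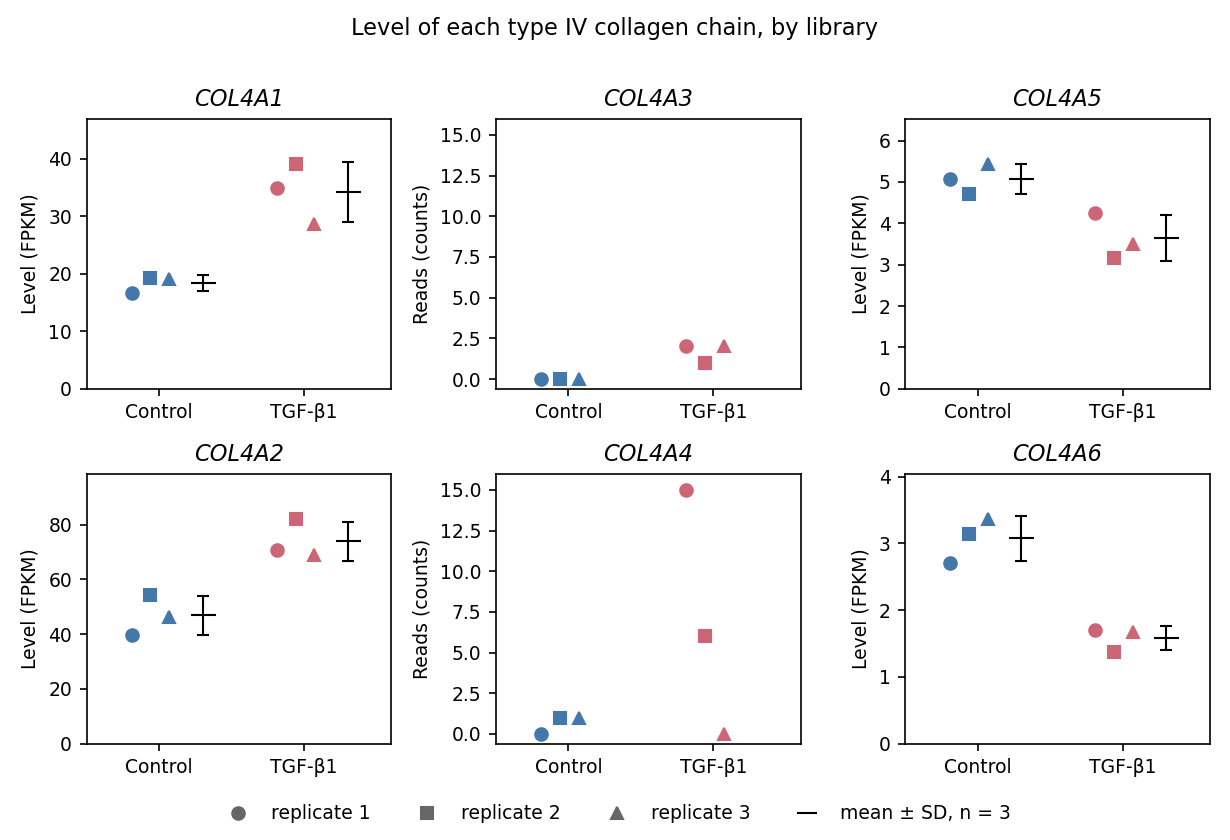
Level of each chain in each library, as FPKM (vertical axis) for COL4A1, COL4A2, COL4A5 and COL4A6 and as reads for COL4A3 and COL4A4; points are libraries and bars mean ± SD of 3. The groups do not overlap for the 4 chains in FPKM, with TGF-β1 above control for COL4A1 and COL4A2 and below it for COL4A5 and COL4A6, and COL4A3 and COL4A4 stay at or below 15 reads.

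COL4A1 encodes the chain that is the larger part of the widespread trimer. Its counts were 3463, 4999 and 4564 in controls 1 to 3 and 8311, 9430 and 5833 in TGF-β1 samples 1 to 3. Scaled by library size with TMM factors these were 245, 291 and 278 CPM in controls and 505, 559 and 429 CPM with TGF-β1. All 3 treated libraries lay above all 3 controls, and TGF-β1 replicate 3 was the lowest of the treated. The mean went from 271 ± 24.0 to 498 ± 65.3 CPM (SD, n = 3), a log2 difference of 0.87 ± 0.14 (SE; 95% interval 0.58 to 1.17) with an edgeR adjusted p of 0.0202. COL4A1 stood at place 25 among the tested genes by p, and 4.07% of them had a larger increase. Without control 1 the edgeR adjusted p became 0.181 with a difference of 0.80, without control 3 it was 0.116 with 0.88, and without TGF-β1 replicate 2 it was 0.234 with 0.78.

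COL4A2 encodes the partner chain in the same trimer. Its counts were 10829, 18521 and 14604 in controls and 22155, 26069 and 18415 with TGF-β1. As CPM the controls were 766, 1079 and 890.1 and the treated libraries 1346, 1546 and 1355. The groups did not overlap, but the controls were spread widely, with control 1 lowest and control 2 highest. The mean went from 912 ± 158 to 1415 ± 113 CPM (SD, n = 3), a log2 difference of 0.63 ± 0.14 (SE; 95% interval 0.32 to 0.95), and the edgeR adjusted p was 0.0933. Leaving out TGF-β1 replicate 1 gave 0.67 with an edgeR adjusted p of 0.000396, and leaving out TGF-β1 replicate 3 gave 0.66 with 0.0152. DESeq2 on all 6 libraries gave 0.62 with an adjusted p of 0.00711.

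COL4A5 encodes a chain of the trimers with narrower distribution, and its loss causes X-linked Alport syndrome. Its counts were 848, 990 and 1054 in controls and 821, 617 and 576 with TGF-β1. As CPM these were 60.0, 57.7 and 64.2 against 49.9, 36.6 and 42.4. The treated libraries all lay below the controls, and TGF-β1 replicate 1 came closest to them. The mean went from 60.6 ± 3.32 to 42.9 ± 6.65 CPM (SD, n = 3), a log2 difference of -0.50 ± 0.15 (SE; 95% interval -0.83 to -0.17), and the edgeR adjusted p was 0.166. Without TGF-β1 replicate 1 it was -0.62 with an edgeR adjusted p of 0.0155, and DESeq2 on all libraries gave -0.51 with 0.0441.

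COL4A6 encodes the chain that joins the COL4A5 product in basement membranes of smooth muscle and skin. Its counts were 355, 516 and 511 in controls and 257, 210 and 215 with TGF-β1. As CPM these were 25.1, 30.1 and 31.1 against 15.6, 12.5 and 15.8, and the highest treated library lay well below the lowest control. The mean went from 28.8 ± 3.23 to 14.6 ± 1.89 CPM (SD, n = 3), a log2 difference of -0.98 ± 0.17 (SE; 95% interval -1.36 to -0.60) with an edgeR adjusted p of 0.0397. Of all tested genes 0.636% had a larger decrease. The edgeR adjusted p rose to 0.134, 0.0613 and 0.16 without control 1, 2 and 3 in turn and to 0.349 without TGF-β1 replicate 2, with differences between -1.07 and -0.87 over all 6 omissions. It was also 0.0524 with total counts as the only scaling, and 0.0998 and 0.0941 in limma on log2(FPKM + 1) and log2(FPKM + 0.1).

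COL4A3 and COL4A4 encode the chains that join the COL4A5 product in the glomerular basement membrane. COL4A3 had 0 reads in every control and 2, 1 and 2 reads with TGF-β1. A count of 0 allows up to 3 reads, which is 0.17 to 0.216 CPM in these libraries, so both groups lay at or under the limit of detection and no fold is given. COL4A4 had 0, 1 and 1 reads in controls and 15, 6 and 0 with TGF-β1. The groups of COL4A4 overlapped, since TGF-β1 replicate 3 had none, and the 15 reads of replicate 1 made most of the total. The filter on low counts removed both genes. With no filter edgeR gave an adjusted p of 0.0607 for COL4A4 and 0.438 for COL4A3. DESeq2 gave unadjusted p-values of 0.0365 and 0.194 and no adjusted value.

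Of the 6 chains, 4 were tested. Of these 1 was called higher, against 0.187% of all 14463 tested genes called higher, and 1 was called lower, against 0.18% called lower. In either direction 53 genes were called, 0.366% of those tested. All 4 tested chains had an unadjusted edgeR p under 0.05, as did 15.6% of tested genes, and in all 4 the CPM of the groups did not overlap, as in 17.1% of tested genes. The median log2 difference over all tested genes was 0.007.

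**Figure D2:**
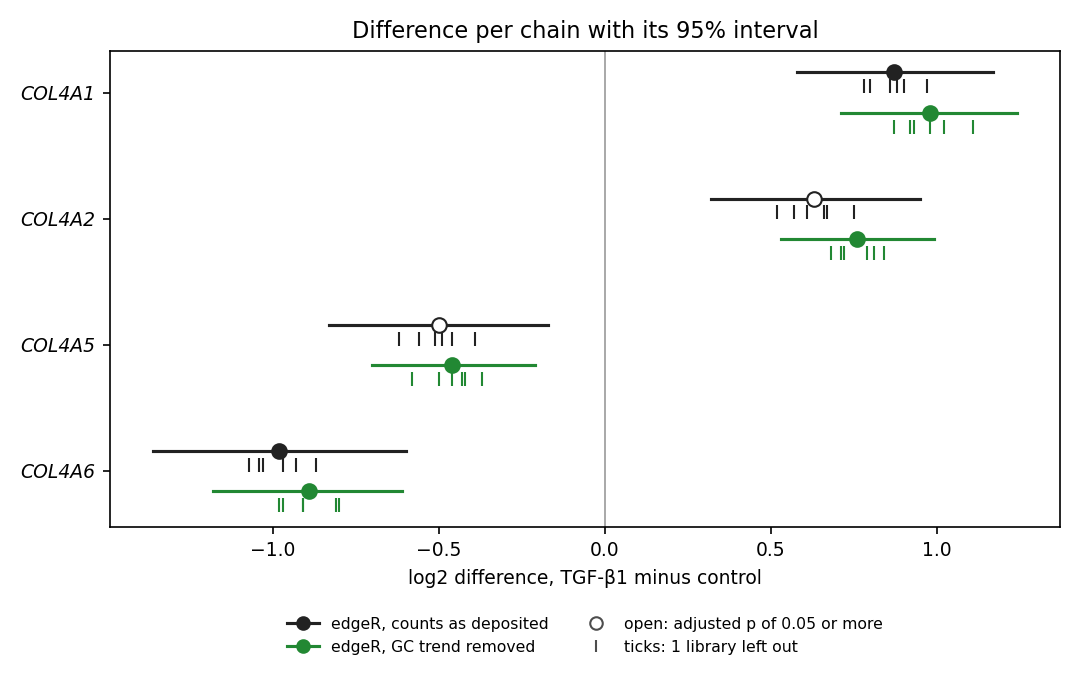
log2 difference (TGF-β1 minus control, horizontal axis) of the 4 tested chains with 95% intervals from edgeR, on counts as deposited (black) and with the GC trend of each library removed (green); filled circles have an adjusted p under 0.05, and ticks leave out 1 library each. All ticks of COL4A1 and COL4A2 lie above 0 and all of COL4A5 and COL4A6 below it.

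The libraries differed in how read counts follow the GC content of genes, and the chains differ in GC. Transcript GC was 55.4% for COL4A1, 62.0% for COL4A2, 50.9% for COL4A5 and 54.6% for COL4A6. A trend was fitted in each library and removed from it. At the GC of COL4A2 this trend was largest in control 2 (0.2159 on the log2 scale) and TGF-β1 replicate 1 (-0.2089). The fit used each library's deviation from the mean of all libraries and ignored the groups. A treatment difference that follows GC would be removed with the trend, so it cannot be told apart from a library effect. With the trend removed, edgeR called all 4 tested chains, where 3.27% of tested genes were called. The difference of COL4A1 was then 0.98 ± 0.12 (SE, adjusted p = 0.000835) and that of COL4A2 0.76 ± 0.11 (SE, adjusted p = 0.00206). That of COL4A5 was -0.46 ± 0.11 (SE, adjusted p = 0.0437) and that of COL4A6 -0.89 ± 0.13 (SE, adjusted p = 0.00294). Each size moved by less than 1 standard error of the fit without it, and the standard errors were smaller. Leaving out any 1 library with the trend removed kept COL4A1, COL4A2 and COL4A6 under an adjusted p of 0.05. COL4A5 was kept in 2 of the 6 omissions, with differences between -0.58 and -0.37 and adjusted p-values up to 0.191 in edgeR.

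The balance within each pair was compared as a ratio of FPKM per library. COL4A1 over COL4A2 was 0.42, 0.355 and 0.411 in controls and 0.493, 0.475 and 0.416 with TGF-β1. The groups overlapped slightly, since the lowest treated value, 0.416, lay below the highest control, 0.42. The log2 difference was 0.22, with an exact permutation p of 0.2 (two-sided; 0.2 after adjustment over the 2 pairs tested). COL4A5 over COL4A6 was 1.87, 1.5 and 1.61 in controls and 2.5, 2.3 and 2.09 with TGF-β1. Here the groups lay apart, with a log2 difference of 0.47 and an exact permutation p of 0.1, the smallest that 3 against 3 allows (0.2 adjusted). The ratio of COL4A3 to COL4A4 could not be formed because libraries had 0 reads.

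Although the assembled trimer holds more of the COL4A1 than of the COL4A2 product, COL4A2 reads exceeded COL4A1 reads per length in every library. COL4A2 over COL4A1 was 2.54 ± 0.239 in controls and 2.18 ± 0.198 with TGF-β1 (SD, n = 3). The FPKM use the length that the deposited values imply, 14662 bases for COL4A1 and 19271 for COL4A2. With the longest annotated transcript, 6616 and 6494 bases, the ratio was 3.41 and 2.92, so the order did not depend on this choice. Of the exon bases of COL4A2, 95 (0.49%) overlap COL4A2-AS1 and COL4A2-AS2, which had at most 9 reads each per library, and 120 of COL4A3 (1.32%) overlap AC097662.1. The library kit does not mark strand, so reads in such stretches cannot be assigned to one gene.

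**Figure D3:**
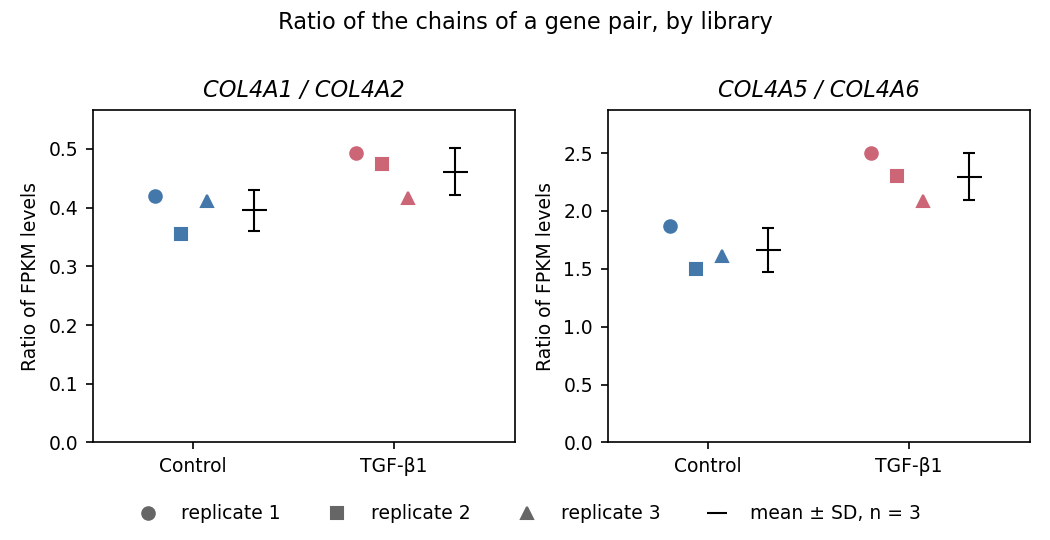
Ratio of FPKM within each measurable gene pair in each library (vertical axis), for COL4A1 over COL4A2 and COL4A5 over COL4A6; points are libraries and bars mean ± SD of 3. The groups overlap for the first ratio and lie apart for the second, where controls range from 1.5 to 1.87 and TGF-β1 samples from 2.09 to 2.5.

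The balance across pairs is given as a description. COL4A5 over COL4A1 was 0.302, 0.245 and 0.285 in controls and 0.122, 0.0808 and 0.122 with TGF-β1, a log2 difference of -1.38 between groups that lay apart. The summed FPKM of the 6 chains was 64.3, 81.4 and 74.3 in controls and 111, 126 and 103 with TGF-β1. COL4A5 and COL4A6 together made 12.1%, 9.64% and 11.9% of that sum in controls and 5.34%, 3.6% and 5.03% with TGF-β1. The groups lay apart, and the mean share went from 11.2% ± 1.35 to 4.66% ± 0.926 (SD, n = 3). The COL4A1 share was 25.1% ± 1.27 in controls and 30.1% ± 1.87 with TGF-β1, while COL4A2 held 63.7% ± 2.62 and 65.2% ± 1.85. As a share of the summed FPKM of 38 collagen chains in the table, type IV was 8.75% ± 0.634 in controls and 11.6% ± 0.606 with TGF-β1. These shares follow from the levels above and carry no separate test.

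**Figure D4:**
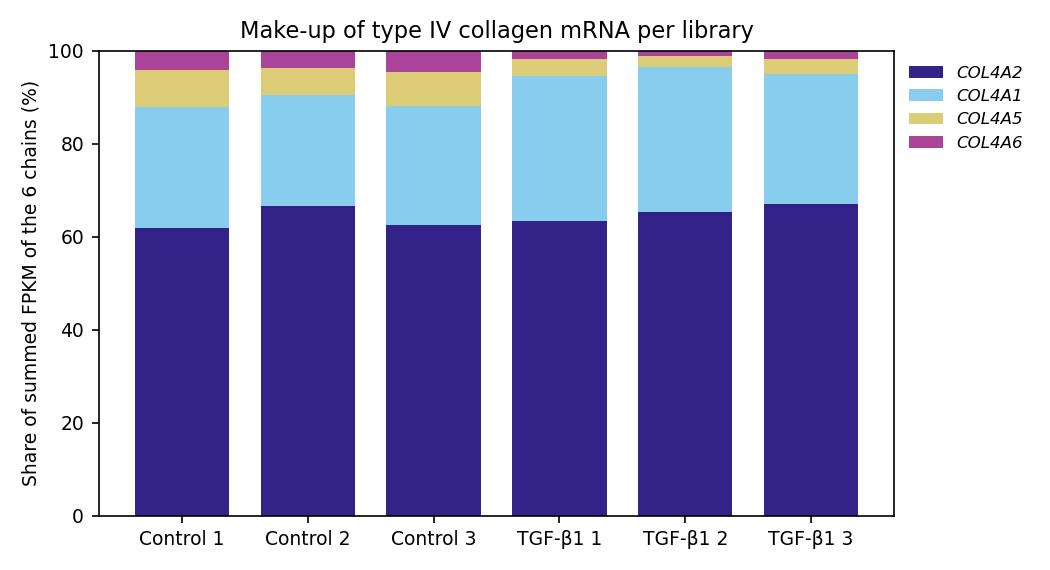
Share of each chain in the summed FPKM of the 6 type IV collagen chains (vertical axis, percent), 1 bar per library. COL4A1 and COL4A2 together make 87.9% to 90.3% in controls and 94.6% to 96.4% with TGF-β1.

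Within the groups, TGF-β1 replicate 2 lay above its group mean for COL4A1 (by 0.18 on the log2 CPM scale) and COL4A2 (0.13) and below it for COL4A5 (-0.22) and COL4A6 (-0.22). Control 1 lay below its group mean for COL4A1 (-0.15), COL4A2 (-0.24) and COL4A6 (-0.19), with COL4A5 close to it (-0.01), so the pairs were not set apart in that library. Over the 6 libraries Pearson's r of log2 CPM was 0.955 between COL4A1 and COL4A2 and 0.933 between COL4A5 and COL4A6. Between chains of different pairs it ran from -0.93 to -0.845. These are descriptions over 2 groups of 3 libraries, whose separation sets most of r.

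By the same measure, among 10639 genes with a mean of at least 5 CPM, the 5 genes most like COL4A1 were PODXL (0.997), BHLHE40, PRMT6, SOX4 and ALPK2, all at 0.985 or above. The genes named here were picked for following a chain over the same libraries, so their group differences depend on that choice. The share of all tested genes that passed was 0.366%. PODXL, the sialomucin podocalyxin, rose by a log2 difference of 0.72 (edgeR adjusted p = 0.0314), while the other 4 did not pass. Those most like COL4A2 were ERICH1 (0.984), COL5A1, CFDP1, DNPH1 and HS3ST3A1, and of these COL5A1, a fibrillar type V collagen chain, rose by 0.72 (edgeR adjusted p = 0.0418). For COL4A5 they were LINC00707 (0.994), PCDH7, CDCA7L, VSIG10 and the hyaluronan receptor CD44, none of which passed. For COL4A6 they were TMCO3 (0.997), OLFML2A, SEL1L3, SFRP1 and NOP14-AS1, and the secreted Wnt antagonist SFRP1 fell by 1.22 on the log2 scale (edgeR adjusted p = 0.00427).

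Other parts of the basement membrane did not move as a block. Of 25 listed partner genes 18 were tested, and 1 was called higher and 1 lower (0.187% and 0.18% of all tested genes). An unadjusted edgeR p under 0.05 was found in 8 (15.6% of all tested genes), and DESeq2 called 3 (4.69% of genes with an adjusted p there). The differences were positive in 7 and negative in 11, with a median of -0.19 against 0.01 for all genes tested. LAMA5, a laminin alpha chain widespread in mature basement membranes, went from 978 ± 104 to 595 ± 55.2 CPM (SD, n = 3; log2 difference -0.72, edgeR adjusted p = 0.0418). The 3 partners with the highest FPKM did not pass. Agrin, AGRN, differed by -0.38 (edgeR adjusted p = 0.182), LAMB3 by -0.31 (0.274) and LAMC1 by 0.19 (0.482).

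**Figure D5:**
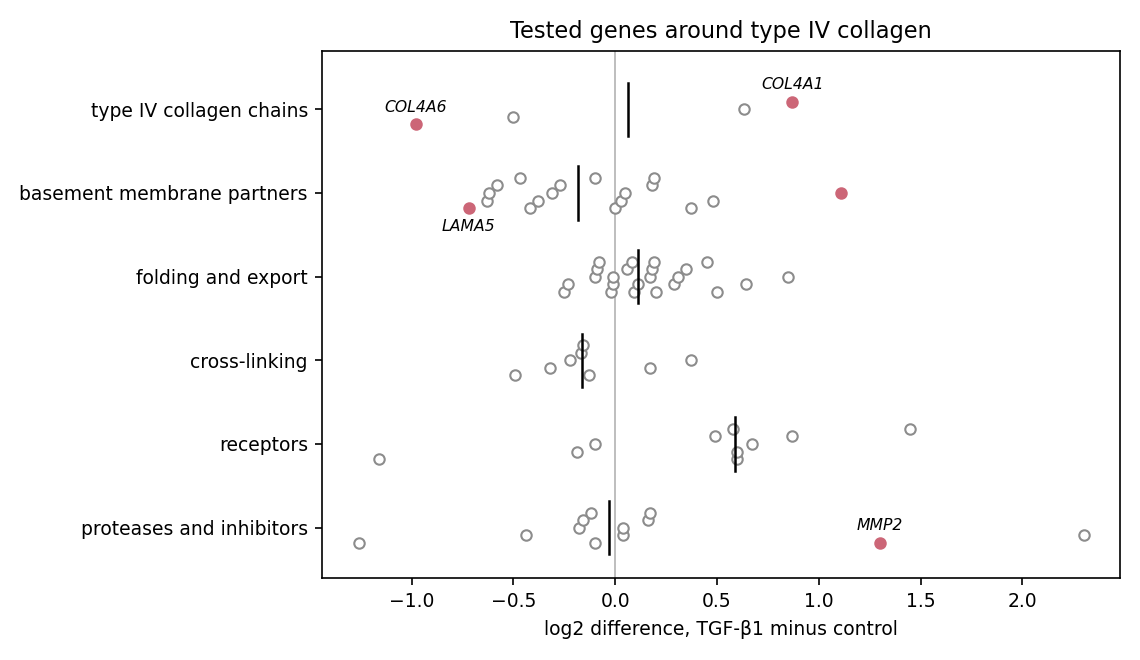
log2 difference (TGF-β1 minus control, horizontal axis) of each tested gene in the 5 lists of partner genes and of the 4 tested type IV collagen chains; points are genes, black bars the median of each list, and filled points have an edgeR adjusted p under 0.05. The labelled filled points are MMP2 and COL4A1 above 0 and LAMA5 and COL4A6 below it.

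Genes for folding and export of collagen in the endoplasmic reticulum were tested in 23 of 24 cases, and 0 were called by edgeR, where 0.366% of all tested genes were. At an unadjusted p under 0.05 there were 5, where 15.6% of all tested genes had one, and DESeq2 called 1, where it called 4.69% of the genes to which it gave an adjusted p. The differences were positive in 15 and negative in 8, with a median of 0.11. The largest was that of the lysyl hydroxylase PLOD2 at 0.85 (edgeR adjusted p = 0.133; 0.26 with the GC trend removed), followed by the export receptor MIA3 at 0.64 (0.244). P4HB, a subunit of prolyl 4-hydroxylase, differed by -0.25 (edgeR adjusted p = 0.434), the lysyl hydroxylase PLOD1 by -0.10 (0.778) and the prolyl isomerase FKBP10 by -0.01 (0.976). With the GC trend removed edgeR called 2: SERPINH1, the collagen chaperone HSP47, at 0.45 (adjusted p = 0.0164), and the COPII coat gene SEC24D at 0.42 (adjusted p = 0.0465). That fit called 3.27% of all tested genes.

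For cross-linking, 8 of 9 listed genes were tested and 0 were called by edgeR, with 1 at an unadjusted p under 0.05 (15.6% of all tested genes) and 0 called by DESeq2 (4.69% of genes with an adjusted p there). PXDN, peroxidasin, which forms the sulfilimine bond between type IV collagen trimers, stood at 489 ± 33.5 CPM in controls and 549 ± 34.9 with TGF-β1 (SD, n = 3; log2 difference 0.17, edgeR adjusted p = 0.532). The abundant LOXL2 differed by -0.16 (edgeR adjusted p = 0.589), TGM2 by -0.17 (0.63) and SPARC, which binds type IV collagen, by 0.37 (0.179). The list's median was -0.16. With the GC trend removed, where 3.27% of all tested genes were called, 1 was called: LOX, lysyl oxidase, at -0.57 (edgeR adjusted p = 0.0117). Before removal LOX differed by -0.22 (edgeR adjusted p = 0.583).

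All 10 receptor genes were tested and 0 were called by edgeR (0.366% of all tested genes). An unadjusted p under 0.05 was found in 7 (15.6% of all tested genes), and DESeq2 called 3 (4.69% of genes with an adjusted p there). Of the differences 7 were positive, and the median was 0.59, which became 0.30 with the GC trend removed. ITGB1, the shared beta subunit of collagen-binding integrins, stood at 790.5 ± 129.6 CPM in controls and 1261 ± 421 with TGF-β1 (SD, n = 3; 0.67, edgeR adjusted p = 0.19). Its partner ITGA2 differed by 0.58 (edgeR adjusted p = 0.245) and the discoidin receptor DDR1 by -0.10 (0.761). ITGAV, the alpha subunit of integrins that activate latent TGF-β, differed by 1.45 (edgeR adjusted p = 0.0542). With the GC trend removed it differed by 0.99 and was the 1 receptor called (edgeR adjusted p = 0.000806), where 3.27% of all tested genes were called.

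Among proteases that cut type IV collagen and their inhibitors, 12 of 14 listed genes were tested, with 1 called higher and 0 lower (0.187% and 0.18% of all tested genes). By unadjusted p under 0.05 there were 4 (15.6% of all tested genes), and DESeq2 called 3 (4.69% of genes with an adjusted p there). MMP2, the gelatinase named for cutting type IV collagen, went from 59.3 ± 9.37 to 146 ± 14.1 CPM (SD, n = 3; log2 difference 1.30, edgeR adjusted p = 0.00309). The other gelatinase, MMP9, differed by -0.12 (edgeR adjusted p = 0.752). MMP14, the membrane protease that activates the MMP2 product, differed by 0.17 (edgeR adjusted p = 0.577), TIMP1 by 0.16 (0.631) and TIMP2 by 0.04 (0.882). The differences were positive in 6 and negative in 6, with a median of -0.03. With the GC trend removed edgeR called 2 higher, MMP2 and the stromelysin MMP10, and 3 lower, MMP3, CTSL and CTSS. In that fit 3.27% of all tested genes were called in either direction. Of these proteases only MMP2 also passed without the removal. MMP10 had 2, 5 and 3 reads in controls and 17, 20 and 13 with TGF-β1, so its controls lay near the limit of detection.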

How the data were processed

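Counts of reads per gene were deposited by the authors without normalization, per the file headers, and FPKM values were deposited beside them; the FPKM followed from the counts with 1 whole-number gene length per gene in all 6 libraries (tolerance 0.001 bases). HISAT2, HTSeq version 0.13.5 and GRCh38 are named in the submitters' processing notes without their roles. Which annotation the authors counted on is not stated there. Trizol RNA went into a NEBNext Ultra preparation, per the labels' protocols, and this kit leaves reads unstranded.

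Counts were fitted for the whole table with edgeR 4.0.16 in R 4.3.3 (robust quasi-likelihood F test, TMM factors, filterByExpr, 14463 genes kept). Benjamini-Hochberg adjustment ran over all of these genes, and an adjusted p under 0.05 was a call. The GC trend was a loess curve (span 0.5) per library over transcript GC, which GENCODE release 29 gave for 26968 of 27830 genes and not for 862. The code was tested on simulated data. Ratios were compared by exact permutation in SciPy 1.17.1. Alternatives were other scalings, filters, DESeq2 1.42.0, limma 3.58.1, the replicate number as a block and each library left out. Leaving out libraries with the GC trend removed was added after seeing the data.

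The members and lists were chosen with earlier results of these data known. Named genes are the 6 chains, the treatment check genes, in each of 5 partner lists every called gene and the 3 with the highest FPKM, and for each tested chain the 5 genes with the highest correlation. PXDN, MMP9, ITGAV, PLOD2, MIA3, PDGFRB, HAND2, NGFR and the genes called after removal of the GC trend were chosen after their values were seen. Other single markers of cell types are also named with their values known. NPNT, SMOC2, MMP12, LYVE1, ALB, TTR, TF, CDH1, CD68 and CD3E were listed but are not analysed here, and some genes that the rule names or the lists hold are not reported here, though counts over a list include those in the table. Depth limits the chains with few reads, and floors cover counting error only.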

Additional observations from a re-analysis of the deposited data

How the results depend on the processing

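None of the 4 tested chains and neither within-pair ratio changed direction under the alternatives run. For COL4A1 the 12 alternatives that kept all libraries gave 0.84 to 0.98, all past the threshold, and leaving out 1 library gave 0.78 to 0.97. COL4A2 passed the threshold with no filter (0.62), in DESeq2 (0.62) and with the GC trend removed (0.76), and ranged from 0.52 to 0.75 with 1 library left out. COL4A5 passed in DESeq2 (-0.51) and with the GC trend removed (-0.46), and ranged from -0.62 to -0.39. COL4A6 no longer passed with total counts only (-0.96), log2(FPKM + 1) (-0.66) or log2(FPKM + 0.1) (-0.92), and ranged from -1.07 to -0.87. The number of genes called, 53, became 111 with upper quartile factors, 1240 with no filter, 597 in DESeq2 and 473 with the GC trend removed. Of the omissions, that of TGF-β1 replicate 2 left 4 calls and that of TGF-β1 replicate 3 gave 1671. There were 13 without control 1, 15 without control 3 and 324 without TGF-β1 replicate 1. Leaving out libraries after GC correction, controls 1, 2 and 3 gave 117, 185 and 388 calls, and TGF-β1 replicates 1, 2 and 3 gave 347, 95 and 1544. COL4A2 then passed in each case, at 0.68, 0.81 and 0.79 without controls 1, 2 and 3 and 0.72, 0.71 and 0.84 without the treated replicates in the same order. COL4A5 then passed without TGF-β1 replicate 1 (-0.58) and without TGF-β1 replicate 3 (-0.43). The cause of these changes was not tested. The COL4A1 to COL4A2 ratio kept a log2 difference of 0.15 to 0.30 and the COL4A5 to COL4A6 ratio 0.26 to 0.56.

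Whether same-numbered samples share a culture or day is not stated. Their deviations from the group means correlated at 0.156, 0.089 and -0.323 for numbers 1, 2 and 3. With the GC trend removed these were -0.009, 0.073 and -0.159. For some samples another number gave the higher correlation. With 3 libraries per group such correlations cannot decide whether the numbers mark pairs. With the replicate number as a block, 527 genes were called, COL4A2 passed at 0.65, and no other call among the chains changed. With the block and the GC trend removed, 477 were called, with COL4A2 at 0.76 and COL4A5 at -0.47.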
